A study of Mus musculus with 8 samples.

Results

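The genes described here encode the proteasome, its activators and the chaperones that help to build it. They were taken by name, as every probe of a mouse expression array whose gene name opens with Psm, a letter from a to g and a digit. That rule found 69 of 41174 probes, which carry 44 gene names. Of the 44 names, 43 belong to proteasome subunits and regulators, and 1, Psmc3ip, belongs to a recombination factor that is no part of the proteasome and is set apart below. The 43 genes divide into 5 that interferon is known to induce (Psmb8, Psmb9, Psmb10, Psme1 and Psme2) and 38 others. The 38 are called constitutive below, although they include Psma8, the alpha subunit known from testis. After a filter on dim probes 65 of the 69 probes remained, and all 44 genes kept at least 1 probe among 21638 genes tested. Each of the 44 was at or above the brightness limit in all 4 tumors and all 4 normals, so none entered through the group in which it was higher.

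The proteasome is the barrel-shaped protease that degrades proteins tagged with ubiquitin. Its 20S core stacks rings of alpha subunits on rings of beta subunits, and the active sites sit inside on Psmb5, Psmb6 and Psmb7. The 19S cap docks on the core, where ring-forming ATPases of its base unfold the substrate and the lid removes ubiquitin. Under interferon-gamma, cells replace the standard active-site subunits with Psmb8, Psmb9 and Psmb10 to form the immunoproteasome, and add the PA28 activator made of Psme1 and Psme2, which changes the peptides offered for loading on MHC class I. Gut epithelium and immune cells both make this inducible form.

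Total RNA of 4 colon tumors and 4 normal colons of C57BL/6 mice was hybridised to single-colour Agilent arrays, 1 array for each sample. The tumors were labelled colon adenoma with the genotype Tcf4Het ApcHet, and the normals normal colon with the genotype TCF4WT ApcHet. All 8 thus carried 1 mutant copy of Apc, called ApcMin in the protocol, the allele whose carriers develop intestinal adenomas, and the tumor mice also a mutant Tcf4 allele (Tcf4 is an older name of Tcf7l2, a Wnt transcription factor gene). Tissue and Tcf4 genotype cannot be told apart in any comparison below. The protocol gives the distal 2.5 cm of colon of adult littermates as the source and does not say how tumor was separated from surrounding tissue. The samples are whole tissue, in which fewer cells of a type and less RNA per cell cannot be told apart.

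Which array belongs to which sample is not settled by the files, and every result below rests on the sample names of the authors' log2 value table. Of its 8 columns, 4 matched a scanner file exactly in rank order, but only 1 of them, tumor 1, matched the file of its own sample. The column of tumor 2 matched the file listed under normal 4, that of normal 1 the file under normal 2, and that of normal 2 the file under normal 3. The other 4 columns matched no file. Between the value columns, limma with Benjamini-Hochberg adjustment over all genes called 3147 of 21638 genes at an adjusted p under 0.05 (14.5%), and in the scanner files as listed it called 0, with 433 at an unadjusted p under 0.05. Normal 3 stood apart from the other normals: over all genes tested its correlation with the tumors was 0.947 to 0.966 and with the other normals 0.872 to 0.941. The other normals correlated with the tumors at 0.870 to 0.956. They were not alike either: normals 2 and 4 correlated at 0.987, but normal 1 correlated more with tumor 4 (0.956) than with any normal (0.938 to 0.941). Without normal 3 limma called 11136 genes (51.5%). The distal colon markers were present in all 8 columns, with a list mean of 14.57 to 15.64 in tumors and 16.43 to 16.61 in normals. Of the 7 genes on that list 5 were lower in tumors by limma, or 2 with the replicate number as a block (7.54% and 5.03% of all genes). The median difference of all genes, tumor minus normal, was 0.15 on the log2 scale, and differences below are read against it.

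Of the 43 proteasome genes, 39 had a higher mean in the tumors and 4 a lower one, and with the columns centred 36 and 7. By limma's test 13 rose and 0 fell (adjusted p under 0.05), where 7.00% of all genes tested rose and 7.54% fell. The 13 were Psmb5, Psmd3, Psmc2, Psmc5, Psmd14, Psma7, Psma3, Psmc4, Psmd7, Psmd12, Psmb4, Psme1 and Psmd2. In 26 of the 43 all 4 tumors lay above all 4 normals, as they did in 11.9% of all genes, and in 1, Psmf1, all tumors lay below, as in 11.9% of all genes. The median difference over the 43 was 0.38, against 0.15 over all genes. With each column centred on its median gene these medians were 0.24 and 0.02, 19 of the 43 genes had all tumors above all normals (8.85% of all genes), and limma called 1 gene higher and 1 lower (4.96% and 9.32% of all genes, 14.3% together). Among the 4679 genes whose mean value was at least 13, a limit chosen after seeing the data, 10.6% rose, 21.2% had all tumors above all normals and the median difference was 0.03. The proteasome genes in that bright set number 38 and include all 13 that rose, all 26 without overlap, and a median difference of 0.38.

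These calls were small in size and close to the threshold. The 13 differences ran from 0.41 to 1.10 on the log2 scale, and between the traced tumor and normal columns they were 0.26 to 0.94 on slide 1 and 0.51 to 1.55 on slide 2. None of the 13 overlaps between the groups, so the sign within a slide was fixed and adds nothing. Adding the replicate number as a block left 1 of the 13 past the threshold, Psmb5, and gave the other 12 adjusted p-values of 0.0544 to 0.0927 by limma, where 8.64% of all genes were called, 3.60% higher and 5.03% lower. Leaving out normal 3 gave 22 genes higher of 43 (31.7% of all genes rose and 19.8% fell) and 28 with all tumors above the 3 normals (33.3% of all genes). Leaving out tumor 1, 2 or 3 or normal 1, 2 or 4 left 0 of 43 while 21 to 855 genes were called in all, and leaving out tumor 4 left 3.

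**Figure D1:**
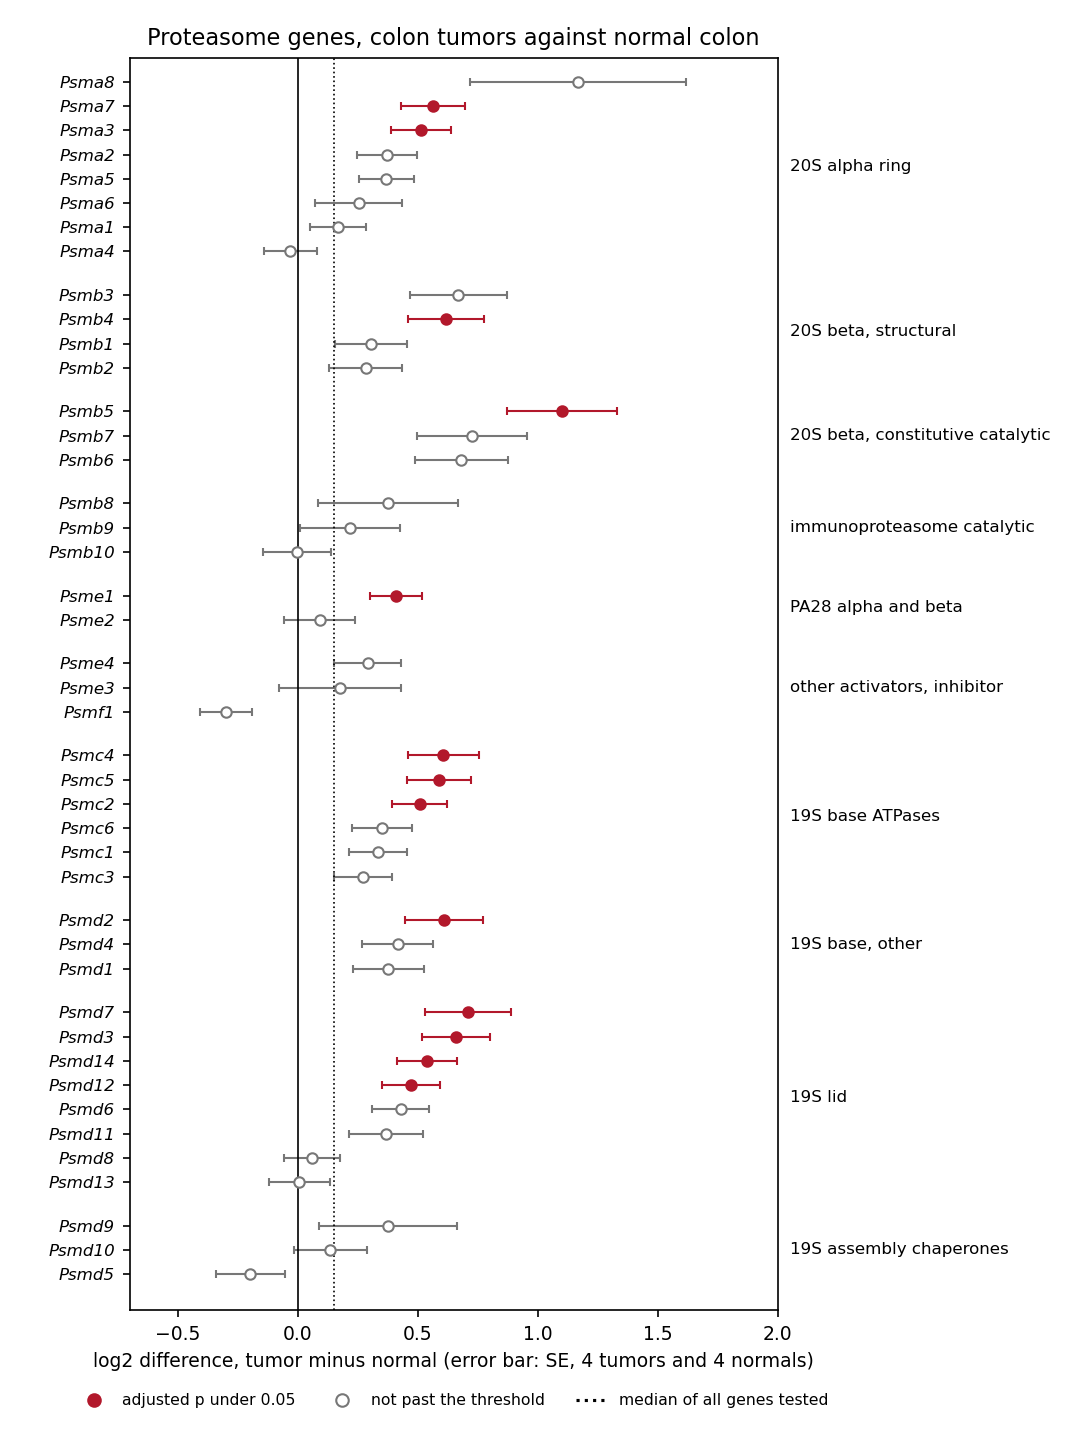
Differences between 4 tumors and 4 normals for the 43 proteasome genes, grouped by role. Points give the log2 difference, tumor minus normal, with its SE from limma; filled points mark an adjusted p under 0.05, the solid line is 0 and the dotted line is the median of all genes tested, 0.15. Psmb5 lies at 1.10, Psmb10 at -0.00 and Psmf1, the inhibitor, at -0.30.

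Psmb5 carries the chymotrypsin-like active site of the standard core. Its value was 15.66, 15.79, 15.80 and 15.61 in tumors 1 to 4, against 14.72, 14.24, 15.21 and 14.29 in normals 1 to 4. Every tumor lay above every normal, the tumors spread over a narrow range, and normal 3 was the highest normal. The means were 15.72 ± 0.09 in tumors and 14.62 ± 0.46 in normals (SD, n = 4 each), a difference of 1.10 ± 0.23 (SE) or 2.14-fold, with a limma adjusted p of 0.0248. It was the only proteasome gene past the threshold with the replicate block (adjusted p = 0.0479 by limma), and over the fits that leave out 1 sample its adjusted p ran from 0.0027 to 0.0806.

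Psmb6 and Psmb7 carry the caspase-like and the trypsin-like sites. Psmb6 had 15.31, 15.28, 15.24 and 15.02 in the tumors and 14.64, 14.21, 14.98 and 14.29 in the normals. Psmb7 had 13.74, 13.76, 14.02 and 13.78 in the tumors and 13.25, 12.68, 13.66 and 12.81 in the normals. Both genes thus had all tumors above all normals, with normal 3 the nearest of the normals to the tumors. The differences of 0.68 ± 0.20 for Psmb6 and 0.73 ± 0.23 for Psmb7 did not pass the threshold in limma (adjusted p 0.0553 and 0.0742), and without normal 3 both did (0.83 with an adjusted p of 0.0093, and 0.91 with 0.0095).

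The 3 inducible subunits that take the places of these 3 showed no such separation. Psmb8, which replaces Psmb5, had 14.42, 14.04, 14.68 and 14.21 in the tumors and 14.03, 14.14, 13.19 and 14.49 in the normals. Psmb9, which replaces Psmb6, had 13.64, 13.16, 13.88 and 13.80 in the tumors and 13.69, 13.27, 13.11 and 13.52 in the normals. Psmb10, which replaces Psmb7, had 16.58, 16.49, 16.72 and 16.67 in the tumors and 16.75, 16.68, 16.32 and 16.70 in the normals. Groups overlapped for all 3 genes, and normal 3 was the lowest normal each time. The limma differences were 0.38 ± 0.29 for Psmb8 (adjusted p 0.342), 0.22 ± 0.21 for Psmb9 (0.432) and -0.001 ± 0.14 for Psmb10 (0.996). Without normal 3 they were 0.12, 0.12 and -0.10 with adjusted p-values of 0.643, 0.643 and 0.513.

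Normal 3 thus moved in opposite directions in the 2 sets of active-site genes. Its mean over Psmb8, Psmb9 and Psmb10 was 14.21, below the tumors (14.57 to 15.09) and below the other normals (14.70 to 14.90). Its mean over Psmb5, Psmb6 and Psmb7 was 14.62, nearer to the tumors (14.80 to 15.02) than to the other normals (13.71 to 14.20). In 20 of the 43 genes, among them 11 of the 12 constitutive ones that rose, the value of normal 3 was above the other 3 normals and below all tumors. For these 12, whose groups do not overlap, lying below all tumors was fixed in advance. The share of all genes with this placement was not counted. Over all genes tested the mean of normal 3, 10.45, also lay above the other normals (10.11 to 10.27), within the range of the tumors (10.41 to 10.48). The leukocyte markers of normal 3 also stood apart, with a list mean of 9.15, against 11.74 to 11.93 in tumors and 10.98 to 11.51 in the other normals, while its neutrophil list mean of 10.87 exceeded that of the other normals (7.04 to 9.13). Its small intestine list mean was 11.13 (other normals 8.92 to 9.70, tumors 8.42 to 10.17). Its means were below the other normals for smooth muscle (14.6, others 15.63 to 16.96, tumors 15.04 to 16.13) and fibroblasts (12.18, others 13.37 to 15.03, tumors 14.22 to 15.35). The same held for B and plasma cells (9.67, others 11.11 to 11.53, tumors 10.87 to 11.79). The part of these markers in the proteasome values was not tested.

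**Figure D2:**
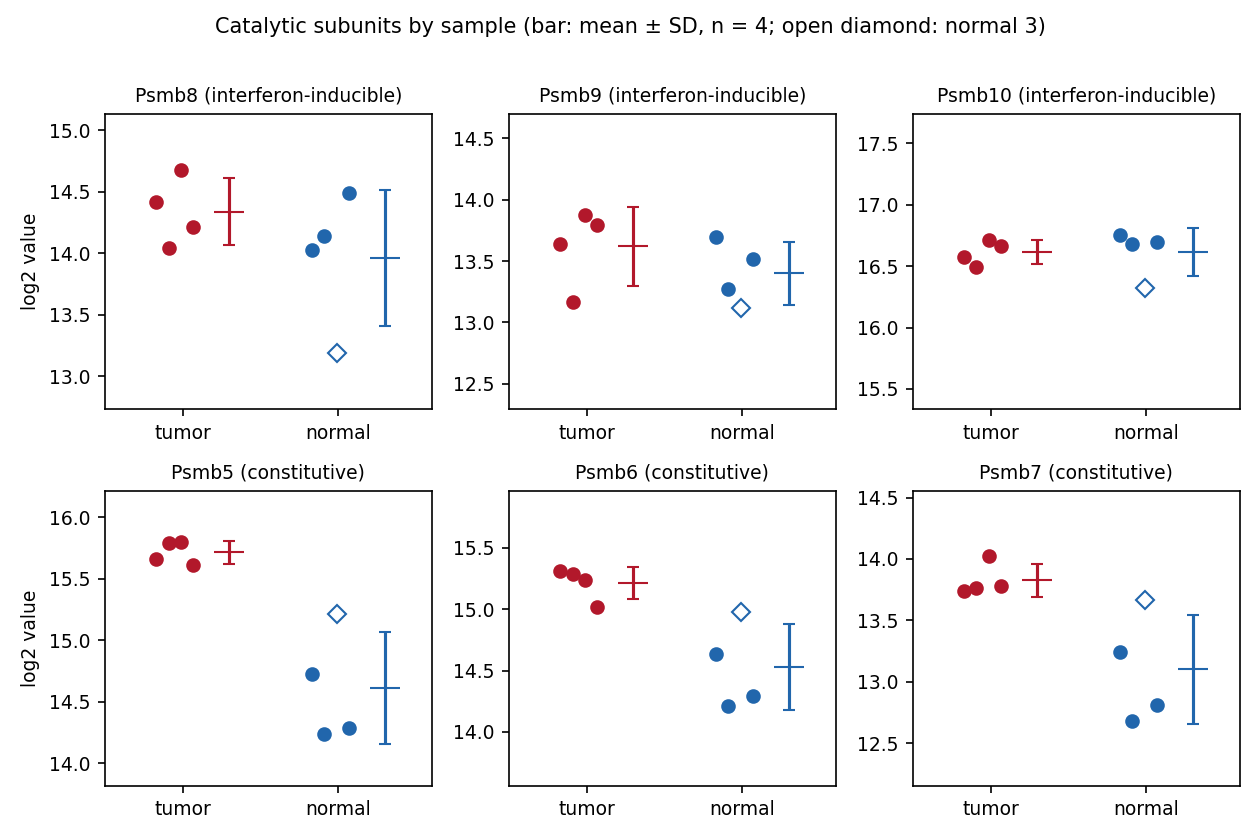
Log2 values of the inducible active-site genes (upper row) and of the constitutive genes they replace (lower row) in 4 tumors and 4 normals. Points are samples, the open diamond is normal 3, and the bars give the mean and SD of 4 samples; each axis covers its own range of values. Tumors and normals separate in the lower row, where Psmb5 has 15.61 to 15.80 in tumors and 14.24 to 15.21 in normals, and overlap in the upper row.

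Whether the inducible and constitutive partners changed unequally was asked from their difference within each array, which is free of shifts that affect a whole array. A probe's level cannot be set against another probe's, so only the change of each difference between groups is read. Psmb8 minus Psmb5 was -1.25, -1.75, -1.12 and -1.40 in the tumors and -0.70, -0.10, -2.03 and 0.20 in the normals. The tumors lay below 3 of the normals and above normal 3. The means were -1.38 ± 0.27 in tumors and -0.65 ± 0.99 in normals (SD, n = 4 each), a shift of -0.73 that did not pass the exact permutation test (two-sided, 70 splits, p = 0.229).

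For Psmb9 minus Psmb6 the tumors had -1.67, -2.12, -1.36 and -1.22 and the normals -0.95, -0.94, -1.86 and -0.78. The shift of -0.46 gave p = 0.200 in the same exact permutation test. For Psmb10 minus Psmb7 the tumors had 2.83, 2.73, 2.69 and 2.89 and the normals 3.51, 4.00, 2.66 and 3.89, and the shift of -0.73 gave an exact permutation p of 0.143. In both pairs normal 3 lay within or beside the range of the tumors and the other 3 normals lay above it. All 3 p-values were 0.229 after Benjamini-Hochberg adjustment over the 3 pairs, with 0.0286 the smallest p that the design allows.

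Without normal 3 all tumors lay below all remaining normals in each pair. The shifts were then -1.18 for Psmb8 minus Psmb5 (exact permutation p = 0.0286, the smallest possible, adjusted 0.0429), -0.71 for Psmb9 minus Psmb6 (p = 0.0571, adjusted 0.0571) and -1.01 for Psmb10 minus Psmb7 (p = 0.0286, adjusted 0.0429). Normal 3 is the sample that lay beside the tumors on these same differences. With any other sample left out no pair passed, and the exact permutation p-values ran from 0.143 to 0.457. In the scanner files as listed, where 3 of the 4 traced arrays stand under another sample, the 3 shifts were above 0 (0.94, 0.74 and 0.31), with an adjusted p of 0.457 each in the exact permutation test. The scanner files differ from the value columns in more than the sample names, since 4 of them matched no column and their signals as listed had not been quantile-normalised. After normexp background correction and quantile normalisation of the scanner signals the 3 shifts were 0.91, 0.75 and 0.23. What turned the direction was not tested. In the traced value columns, tumors 1 and 2 against normals 1 and 2, the 3 shifts were -1.10, -0.95 and -0.97. Each had an exact permutation p of 0.333, the smallest possible there, and normal 3 is not among these columns.

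**Figure D3:**
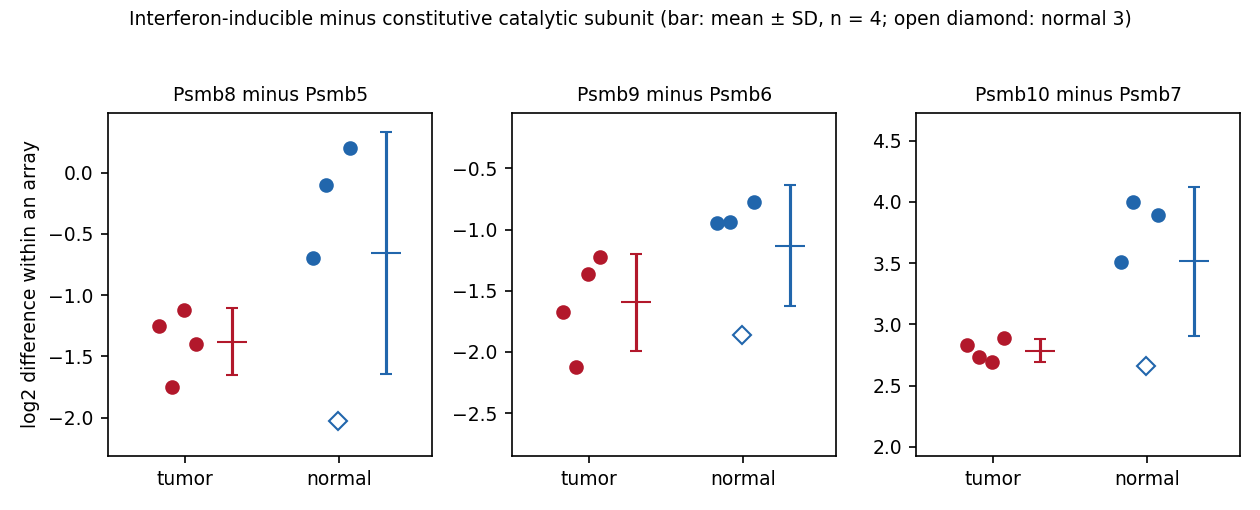
Inducible minus constitutive active-site gene within each array, for the 3 pairs that exchange places in the core. Points are samples, the open diamond is normal 3, and the bars give the mean and SD of 4 samples. Normal 3 lies beside the tumors in all 3 pairs, and the other normals lie above them.

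Psme1 and Psme2 form the PA28 ring that caps the core, and they differed from each other. Psme1 had 15.76, 15.88, 15.84 and 15.79 in the tumors and 15.49, 15.37, 15.38 and 15.38 in the normals. It was the only interferon-inducible gene of the 5 that rose, by 0.41 ± 0.11 (1.33-fold, limma adjusted p 0.0452, and 0.0927 with the replicate block), and its normals, normal 3 included, were close together. Psme2 had 17.27, 17.36, 17.40 and 17.31 in the tumors and 17.19, 17.33, 16.94 and 17.50 in the normals. There the normals reached both below and above the tumors, and the difference was 0.09 ± 0.15 (limma adjusted p 0.647). The difference between the changes of Psme1 and Psme2 was not tested.

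Among the constitutive genes 12 of 38 rose and 25 had all tumors above all normals, and among the interferon-inducible genes 1 of 5 rose and 1 had all tumors above, where 7.00% of all genes rose and 11.9% had all tumors above all normals. The medians of the differences were 0.38 over the 38 and 0.22 over the 5, against 0.15 over all genes. Without normal 3 they were 0.45 and 0.12, against 0.17. No test between the 2 lists was made beyond the 3 pairs above.

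Psmb5 and Psmb6 on one side and Psmb8 and Psmb9 on the other are shown by their promoter windows, since they make up 2 of the 3 active-site pairs compared above. The windows run from 250 bases before to 50 bases after the annotated start and come from RefSeq on GRCm38.p6, while the array's probes are placed on mm8 in the file headers (Psmb5 on chr14:53568529-53568588, Psmb6 on chr11:70343707-70343766, Psmb9 on chr17:33792517-33792576, and the brighter Psmb8 probe on chr17:33811095-33811419). Psmb8 and Psmb9 are neighbours in the MHC region, beside the peptide transporter genes Tap1 and Tap2. Capitals mark each match, on either strand, to the letters TGACNNNGC (the core of the antioxidant response element) or TTCNNNGAA (gamma-activated site core), or to the core of the interferon-stimulated response element, which was searched as GAAA, any pair of bases and GAAA. The windows lie at chr14:54617946-54618245 on the minus strand for Psmb5, chr11:70525107-70525406 on the plus strand for Psmb6, chr17:34197945-34198244 on the plus strand for Psmb8 and chr17:34187281-34187580 on the minus strand for Psmb9.
Psmb5: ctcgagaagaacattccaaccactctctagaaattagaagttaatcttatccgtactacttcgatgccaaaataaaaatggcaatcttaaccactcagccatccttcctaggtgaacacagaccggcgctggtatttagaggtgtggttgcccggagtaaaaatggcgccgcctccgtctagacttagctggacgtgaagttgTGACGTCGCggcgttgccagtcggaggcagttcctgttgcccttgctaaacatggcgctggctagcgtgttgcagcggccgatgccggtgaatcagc
Psmb6: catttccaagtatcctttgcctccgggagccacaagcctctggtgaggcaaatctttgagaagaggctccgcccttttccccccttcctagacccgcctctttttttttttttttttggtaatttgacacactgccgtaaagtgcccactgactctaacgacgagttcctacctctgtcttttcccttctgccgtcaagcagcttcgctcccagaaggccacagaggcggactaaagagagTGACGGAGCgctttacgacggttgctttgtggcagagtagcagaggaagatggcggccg
Psmb8: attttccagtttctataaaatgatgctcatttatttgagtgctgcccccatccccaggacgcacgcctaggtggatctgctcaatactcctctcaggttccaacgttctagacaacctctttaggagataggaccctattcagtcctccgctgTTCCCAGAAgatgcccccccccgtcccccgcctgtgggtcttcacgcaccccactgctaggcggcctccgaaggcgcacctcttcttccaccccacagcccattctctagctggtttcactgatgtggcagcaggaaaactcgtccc
Psmb9: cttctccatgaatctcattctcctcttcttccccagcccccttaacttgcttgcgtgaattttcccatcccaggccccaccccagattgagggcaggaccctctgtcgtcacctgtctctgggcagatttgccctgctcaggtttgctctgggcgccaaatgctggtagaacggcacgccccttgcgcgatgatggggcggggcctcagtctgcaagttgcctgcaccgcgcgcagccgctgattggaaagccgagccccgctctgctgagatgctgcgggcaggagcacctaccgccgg

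Psmb5 holds TGACGTCGC at position -47 from its start and Psmb6 holds TGACGGAGC at position -9. Psmb8 holds TTCCCAGAA at position -97, and the Psmb9 window holds none of the 3 patterns. Of the 43 genes, 36 have a window in the table. TGACNNNGC was found in 6 of 31 constitutive genes (19.4%) and in 0 of 5 inducible ones, against 13.99% of 27025 genes. The interferon-stimulated response element core was found in 3 of the 31 and in 1 of the 5, Psme1 (TTTCGCTTTC), against 3.99% of all genes, and TTCNNNGAA in 1 of the 31 and 1 of the 5 against 9.55%. The CCAAT box, not marked in the sequences, was found in 12 of the 31 and 1 of the 5 against 41.1%. In the windows of these genes matches of different patterns did not overlap. Of the 10 constitutive genes that rose and have a window, 2 held TGACNNNGC. These are matches of letters and not binding sites.

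The alpha ring forms the gate through which substrates enter. Of its 8 genes 2 rose, Psma7 by 0.56 ± 0.13 (limma adjusted p 0.0329) and Psma3 by 0.51 ± 0.12 (0.0351). All tumors lay above all normals in 5 of the 8 (7.00% of all genes rose and 11.9% had all tumors above). Psma7 had 17.27, 17.33, 17.26 and 17.06 in the tumors and 16.71, 16.54, 16.85 and 16.56 in the normals. Psma2 and Psma5 had no overlap either, with differences of 0.37 each and adjusted p-values of 0.0850 and 0.0714. Psma4 was at 13.56 to 13.64 in the tumors and 13.52 to 13.71 in the normals, a difference of -0.03. Psma8, the alpha subunit known from testis, was dim, with 8.01 to 8.33 in the tumors and 6.01 to 8.13 in the normals, and its difference of 1.17 ± 0.45 had an adjusted p of 0.119. It was 1.55 without normal 3 (adjusted p 0.0125 by limma), whose value of 8.13 lay within the tumors' range.

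Of the 4 structural beta genes, which line the inner rings without an active site, 1 rose (7.00% of all genes). Psmb4 had 17.02 to 17.21 in the tumors and 16.26 to 16.79 in the normals, and rose by 0.62 ± 0.16 (limma adjusted p 0.0416). Psmb3 had 16.76 to 16.98 in the tumors and 15.88 to 16.75 in the normals, with a difference of 0.67 ± 0.20 (adjusted p 0.0656). Its groups separated by a narrow gap set by normal 3. Psmb1 and Psmb2 overlapped between groups, with differences of 0.30 and 0.28.

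The genes of the 19S base and lid gave most of the calls, 8 of 17, and 15 of the 17 had all tumors above all normals (7.00% and 11.9% of all genes). All 17 differences were positive, with a median of 0.43. With the replicate block 0 of the 17 passed limma's threshold (3.60% of all genes rose), and without normal 3 the count was 11 (31.7% of all genes).

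Psmc genes encode the 6 ATPases of the base, and in all 6 every tumor lay above every normal (11.9% of all genes). Psmc2 had 15.68, 15.75, 15.72 and 15.58 in the tumors and 15.09, 15.16, 15.29 and 15.16 in the normals. Psmc5 had 15.51, 15.72, 15.52 and 15.42 in the tumors and 14.93, 14.85, 15.16 and 14.86 in the normals. In both genes normal 3 was the highest normal and the gap between the groups was wider than the spread of the normals without it. Psmc2 rose by 0.51 ± 0.11 (limma adjusted p 0.0298), Psmc5 by 0.59 ± 0.13 (0.0306) and Psmc4 by 0.61 ± 0.15 (0.0369). Psmc1, Psmc3 and Psmc6 had differences of 0.34, 0.27 and 0.35 with adjusted p-values of 0.105, 0.164 and 0.0996. Weaker second probes gave 0.14 for Psmc2, 0.50 for Psmc4, 0.25 for Psmc5 and 0.07 for Psmc6. The groups overlapped for those of Psmc2 and Psmc6.

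Of the other base subunits, which hold ubiquitin receptors and scaffolds, Psmd2 rose by 0.61 ± 0.16 (limma adjusted p 0.0457), with 15.21 to 15.63 in the tumors and 14.60 to 15.08 in the normals. Psmd4, a ubiquitin receptor, and Psmd1, a scaffold, had differences of 0.42 and 0.38 with adjusted p-values of 0.100 and 0.123. All 3 had every tumor above every normal (11.9% of all genes). A dimmer second probe of Psmd2 gave 0.29, with overlapping groups, and one of Psmd4 had the opposite sign, -0.37.

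In the lid 4 of 8 genes rose, and 6 of the 8 had all tumors above all normals (7.00% and 11.9% of all genes). Psmd3, a scaffold subunit of the lid, had 16.90, 17.29, 17.03 and 16.88 in the tumors and 16.24, 16.36, 16.51 and 16.34 in the normals. Psmd14, the deubiquitinase that strips ubiquitin chains from substrates, had 15.42, 15.55, 15.64 and 15.37 in the tumors and 14.86, 14.92, 15.10 and 14.95 in the normals. By these probes neither gene had any overlap, and normal 3 was again the highest normal in both. A second kept probe of Psmd14 gave a smaller difference, 0.23, and there normal 3 was the lowest normal, at 13.91. Psmd3 rose by 0.66 ± 0.14 (1.58-fold, limma adjusted p 0.0266) and Psmd14 by 0.54 ± 0.12 (1.45-fold, 0.0322). Psmd7 rose by 0.71 ± 0.18 (0.0396) and Psmd12 by 0.47 ± 0.12 (0.0400). The 3 probes of Psmd7 did not move together, with 0.71 and 0.45 for the 2 brighter ones and -0.51 for a dim one, and those of Psmd12 gave 0.47, 0.80 and 0.15. Psmd6, at 14.75 to 14.96 in the tumors and 14.32 to 14.52 in the normals, had a difference of 0.43 with an adjusted p of 0.0501. Psmd8 and Psmd13 overlapped between the groups, with differences of 0.06 and 0.01.

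**Figure D4:**
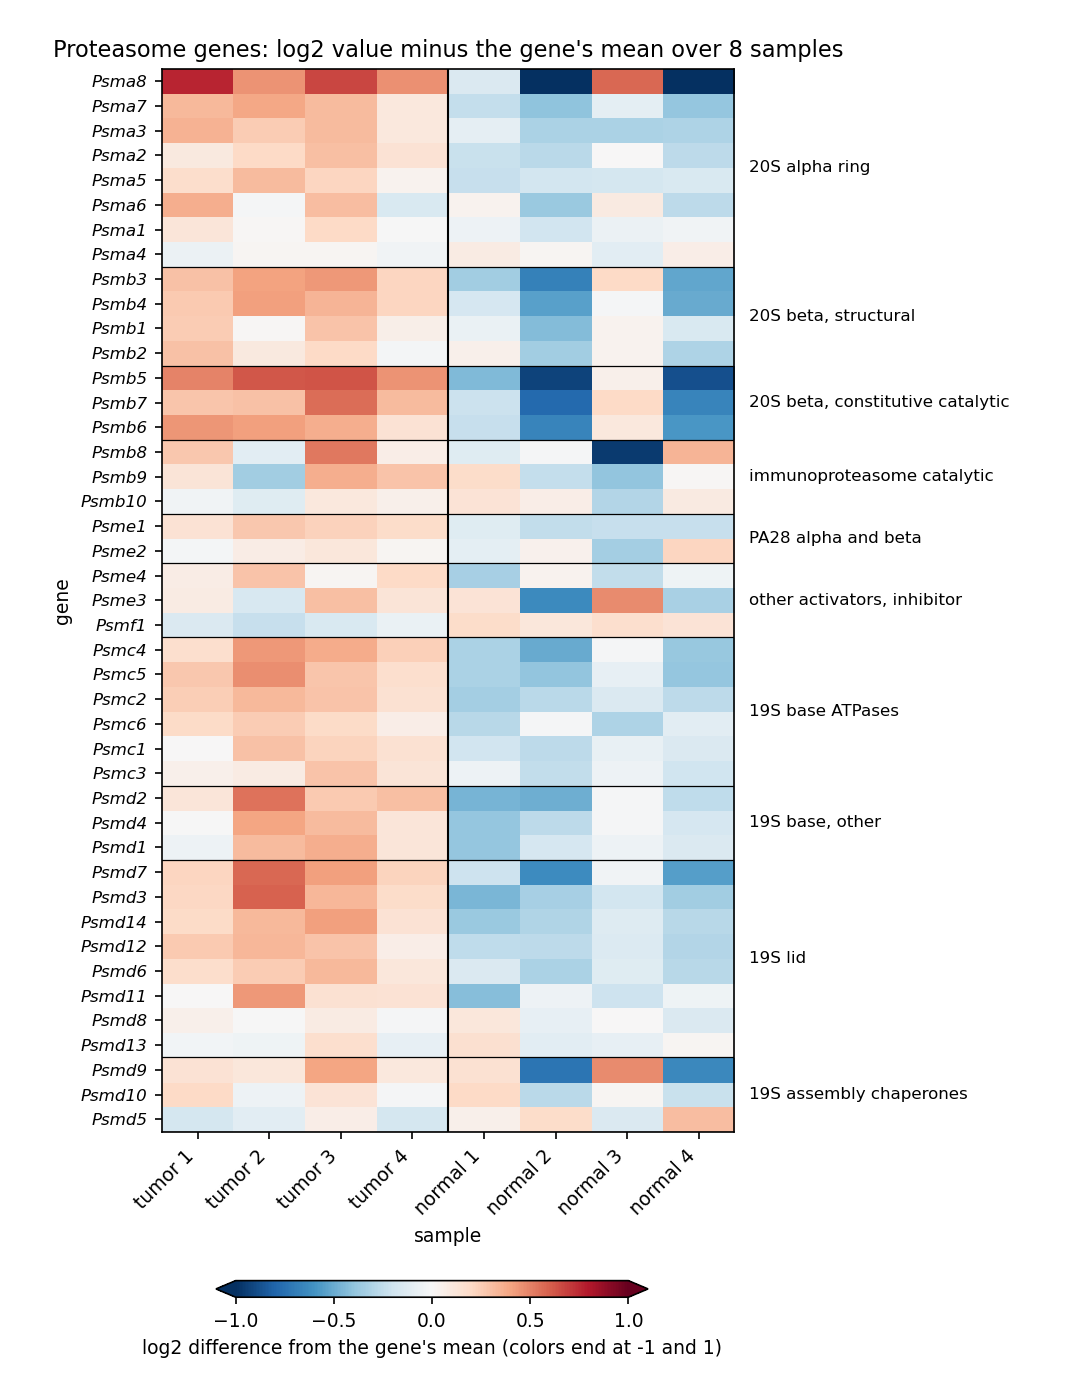
Log2 value of each proteasome gene in each of the 8 samples, minus the gene's mean over the samples; red is above and blue below that mean, and colours end at -1 and 1. Rows are genes grouped by role and columns are the 4 tumors and then the 4 normals. In the row of Psmb8 normal 3 is the darkest blue, with a value of 13.19.

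The chaperones that assemble the 19S base, Psmd5, Psmd9 and Psmd10, gave 0 calls of 3 and overlapped between the groups, with differences of -0.20, 0.38 and 0.14. Psmd5 had 13.18, 13.25, 13.42 and 13.18 in the tumors and 13.40, 13.54, 13.21 and 13.67 in the normals. Its tumors were therefore the lower ones apart from tumor 3, and normal 3 lay among the tumors (limma adjusted p 0.311). The chaperones of the 20S core stand on the array under older gene names and were not taken by the rule. All 3 that were tested, Psmg1, Psmg2 and Psmg3, had every tumor above every normal (11.9% of all genes). Psmg3 rose by 0.995 ± 0.24 (limma adjusted p 0.0343, and 0.0649 with the replicate block), with 13.27 ± 0.18 in tumors and 12.27 ± 0.45 in normals (SD, n = 4 each).

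Psmf1, an inhibitor of the 20S core, was the 1 gene of the family with all tumors below all normals. Its value was 11.28, 11.19, 11.27 and 11.36 in the tumors and 11.61, 11.54, 11.60 and 11.56 in the normals. Both groups were tight, and normal 3 sat with the other normals. The difference of -0.30 ± 0.11 did not pass the threshold in limma (adjusted p 0.104), and passed it with the columns centred (-0.43, adjusted p 0.0483). The 2 other probes of the gene gave -0.42 and -0.36. The remaining activators were not called: Psme4, which encodes PA200, had a difference of 0.29 (limma adjusted p 0.183) and Psme3, which encodes PA28 gamma of the nucleus, 0.18 (0.605). Psme4 was read by 3 probes, of which the other 2 were negative, at -0.08 and -0.46.

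Psmc3ip, taken by the name rule alone, encodes a partner of the meiotic recombinases. It had 11.88, 12.27, 12.10 and 11.81 in the tumors and 10.54, 10.38, 11.35 and 10.61 in the normals. All tumors were above all normals, and normal 3 was the highest normal. The gene rose by 1.30 ± 0.24 (2.46-fold, limma adjusted p 0.0199, and 0.0441 with the replicate block), more than any proteasome gene that rose.

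Outside the family, 4 of 23 genes that work with the proteasome rose and 1 fell, where 7.00% of all genes rose and 7.54% fell, and their median difference was 0.31, against 0.15 over all genes. Without normal 3 the counts were 8 higher and 2 lower (31.7% and 19.8% of all genes). Pomp, the maturation protein of the 20S core, rose by 0.64 ± 0.13 (limma adjusted p 0.0248). Rad23b, a shuttle for ubiquitinated substrates, rose by 0.71 ± 0.16 (0.0307), Txnl1, a thioredoxin-like protein of the 19S cap, by 0.50 ± 0.12 (0.0366), and Sem1, a small lid subunit, by 0.40 ± 0.11 (0.0487). None of these 4 passed with the replicate block (adjusted p 0.0522 to 0.0900 by limma). Ngly1, the glycanase that activates the proteasome gene regulator Nfe2l1, fell by 0.90 ± 0.16 (limma adjusted p 0.0199, and 0.0477 with the block), with 12.67 ± 0.26 in tumors and 13.57 ± 0.12 in normals. Nfe2l1 itself had 14.90 ± 0.15 in tumors and 15.10 ± 0.20 in normals, a difference of -0.21 (adjusted p 0.315), and Nfe2l2 a difference of -0.12 (0.576). Of the 6 genes for ubiquitin and its activating enzymes 0 passed the threshold.

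Genes that use the products of the immunoproteasome or share its inducer were read from gene lists, chosen with earlier results of these data known. In MHC class I loading 1 of 12 genes rose, the chaperone gene Calr (0.49 ± 0.13, limma adjusted p 0.0416), 0 fell, and the median difference was -0.16, where 7.00% of all genes rose. With the replicate block Calr had an adjusted p of 0.0740 and 0 of the 12 were called by limma. Without normal 3, 1 rose and 4 fell, with a median of -0.37 (31.7% and 19.8% of all genes, median 0.17). Tap1 had 10.33 ± 0.38 in tumors and 10.36 ± 0.88 in normals, and its lowest value, 9.08, was that of normal 3. Among 24 genes of the interferon-gamma response 3 rose and 0 fell, with a median of 0.36: Cxcl9, a T cell chemokine, by 2.47 ± 0.29 (limma adjusted p 0.0123), Ifi47, a resistance GTPase, by 1.29 ± 0.17 (0.0139) and Socs1, a feedback inhibitor of the receptor, by 1.39 ± 0.25 (0.0199). Without normal 3, 8 of the 24 rose and 5 fell (31.7% and 19.8% of all genes), and the median was 0.12, below the 0.17 of all genes. Ifng, the gene of the cytokine itself, had 6.45 in tumors and 6.41 in normals and was not called.

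Immune cell markers moved between the groups beside these genes. The neutrophil list had means of 12.11 to 13.66 in tumors and 7.04 to 10.87 in normals, and its 5 markers were called higher. Of these, Cxcr2 was at or above the brightness limit in 4 tumors and 1 normal, and Csf3r in 4 tumors and 3 normals, so Cxcr2 passed the filter on dim probes through the tumors, where it is high. Of 7 macrophage markers 5 rose (13.04 to 13.07 in tumors and 11.36 to 12.17 in normals). Of the T and NK cell markers 3 of 10 rose (9.17 to 9.58 in tumors and 8.11 to 8.94 in normals), and of the pan-leukocyte markers 2 of 4 (11.74 to 11.93 in tumors and 9.15 to 11.51 in normals). B and plasma cell and fibroblast markers gave 0 calls of 6 each. In the epithelium list 2 of 9 genes fell (15.95 to 16.27 in tumors and 16.56 to 16.77 in normals), and of 7 cell cycle genes 3 rose (13.09 to 13.67 in tumors and 12.79 to 13.31 in normals). Over all genes 7.00% rose and 7.54% fell. With the replicate block the calls numbered 4 for neutrophils, 4 for macrophages, 3 for T and NK cells, 0 for the pan-leukocyte list, 1 for the epithelium and 1 for the cell cycle (3.60% of all genes rose and 5.03% fell). Without normal 3, 5 T and NK cell markers rose and 6 epithelium genes fell (31.7% and 19.8% of all genes). The filter on dim probes fixed in advance that no tested marker was below the brightness limit in all samples of both groups. The part of these cell types in the proteasome differences was not tested.

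The genes whose values over the 8 samples were most like the mean of Psmb8, Psmb9 and Psmb10, of all genes tested outside the family, were Gyg (Pearson correlation 0.919), Prxl2c (0.919), Skap1 (0.916), Vip (0.913) and Ighv6-6 (0.912). Gyg primes glycogen synthesis, Skap1 is a T cell adaptor, Vip encodes a neuropeptide and Ighv6-6 is an antibody heavy chain segment. None of the 5 was called between tumors and normals, with limma adjusted p-values of 0.339 to 0.892. These are the highest of many correlations over 8 shared samples and are given as a description.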

How the data were processed

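The authors deposited 1 scanner file for each array and 1 table with a column for each sample. The scanner intensity values were background-subtracted by Agilent Feature Extraction 9.5.1.1 on design 014868 with probes placed on mm8, per the file headers, while the submitters' processing notes name version 10.1.1.1. The deposited table holds log2 values that the authors had quantile-normalised, since each column has the median 8.51 and the 75th percentile 11.40, and its scale, stated by no label, was read from its match to the scanner files. Flags from the scanner files are other deposited values per the file headers, and were used to set the brightness limit.

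A probe was kept at 5.59 or above on at least 4 arrays (31871 kept), and the brightest kept probe stood for its gene. Genes were named through RefSeq of GRCm38.p6, with 24375 probes named by accession, 6301 by symbol, 2426 by synonym and 8072 by the file's name. Tumors were set against normals by limma's moderated test (limma 3.58.1 under R 4.3.3, two-sided, Benjamini-Hochberg over 21638 genes), and the 3 pairs by exact permutation. The labels call the samples independent tissue samples. Same-numbered tumor and normal columns deviated together (correlation 0.238 to 0.534 over genes), although differently numbered ones reached 0.379 and tumor 1 and tumor 4 each correlated more with a normal of another number than with their own. The blocked value is given beside the calls it ends. The number of arrays limits the precision. In simulated data with the spread of these 21638 genes, 40% of changes of 1 log2 unit and 80% of changes of 2 were recovered. Each size was given to 100 genes that were not dim, while 3147 genes were called in the data. Recovery after Benjamini-Hochberg adjustment depends on how many genes change, so these shares do not give the power of this comparison. The genes and gene lists were chosen with earlier results of these data known. Sample values were named for the 5 inducible genes, their 3 counterparts and the 6 genes with the smallest p in each direction, and up to 4 called genes in each direction of the other lists. Psma7 was added after its values were seen, and Nfe2l1, Nfe2l2, Tap1 and Ifng are named from their lists although not called. Alternatives covered the filter, the block, each sample left out, the scanner files as listed, centring, the choice of probe, an intensity trend and the slide.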

Additional observations from a re-analysis of the deposited data

Results flagged for a closer look

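In 6 of the 88 groups of 4 samples (44 genes, tumors and normals) a sample lay far from the other 3, by Dixon's test of its gap over the group's range. Chance sets apart about 1 in 20 groups. Among the tumors, tumor 3 was the highest for Psmb7 (14.02, others 13.74 to 13.78) and for Psmd9 (11.84, others 11.55 to 11.59). Among the normals, normal 3 was the lowest for Psmb10 (16.32, others 16.68 to 16.75) and normal 2 the lowest for Psma1 (16.13, others 16.26 to 16.29). Normal 1 was the highest for Psma3 (14.79, others 14.56 to 14.57) and for Psme1 (15.49, others 15.37 to 15.38), and both of these genes rose in tumors with it included.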

How the results depend on the processing

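With 4 arrays a group, no proteasome gene had an adjusted p below 0.0248 (limma), and calls were lost under most alternatives. The 3147 genes called in all, and the 13 proteasome genes higher, were 1869 and 1 with the replicate block, and 21 to 11136 and 0 to 22 over the fits that leave out 1 sample. Both counts were 0 in the scanner files as listed, in these files with normexp and quantile normalisation, and in the traced columns with slide as a block. At an unadjusted p under 0.05 by limma these 3 settings gave 433, 510 and 7359 genes. The 2 scanner-file settings group the arrays by the sample names of the files, of which 4 matched no column. They therefore differ from the value columns in arrays and groups as well as in processing. The proteasome count was 7 without the filter, 5 with the mean of all probes, 22 with an intensity trend, and 1 higher and 1 lower with centred columns. The block changed no other call of the 44 genes than the 12 it ended. Without normal 3 and with the block, chosen after seeing the data, 8269 genes were called. The 3 pair shifts, listed as Psmb8 minus Psmb5, Psmb9 minus Psmb6 and Psmb10 minus Psmb7, ran from -1.18 to -0.44, -0.71 to -0.29 and -1.01 to -0.57 over the fits that leave out 1 sample. Their replicate block test, which exchanges the signs of the 4 numbered pairs, gave p = 0.375, 0.375 and 0.250 (exact permutation, smallest possible 0.125). In the traced columns, which leave out normal 3, the shifts were -1.10, -0.95 and -0.97. They reversed in the scanner files as listed (0.94, 0.74 and 0.31) and in these files with normexp and quantile normalisation (0.91, 0.75 and 0.23). Under the same 2 settings the difference turned sign for Psma1 (-0.047 and -0.081), Psma3 (-0.077 and -0.088), Psma4 (0.088 and 0.11), Psmb1 (-0.021 and -0.045), Psmb10 (0.41 and 0.35), Psmd10 (-0.047 and -0.042), Psmd12 (-0.0054 and -0.013), Psmd13 (-0.12 and -0.065), Psmd8 (-0.11 and -0.097) and Psme4 (-0.017 and -0.038), and as listed for Psmd7 (-0.029). With slide as a block Psmb9 was -0.082 and Psmd13 -0.064. Centring gave Psmd13 -0.13, Psmd8 -0.076 and Psme2 -0.043, and the mean of probes Psme4 -0.084. Over the fits that leave out 1 sample Psmb10 ran from -0.099 to 0.045, Psmd13 from -0.048 to 0.063, Psme2 from -0.0075 to 0.18 and Psme3 from -0.0063 to 0.36, and without normal 3 and with the block Psmd13 was -0.075 and Psme2 -0.029. The cause of these shifts was not tested.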
